A study of Homo sapiens with 24 samples.

Results

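The members were the cholesterol synthesis and transfer genes PMVK, FDPS, HSD17B7 and SCP2, all on chromosome 1, found by their symbol in the table of normalised expression. A row was found for 3 of the 4, of 11579 rows in all, each with the Ensembl identifier that belongs to its symbol. HSD17B7, which encodes a 3-ketosteroid reductase, was not analysed here. The RNA came from HEK293, a line long established from human embryonic kidney, in 24 libraries that form 8 groups of 3. Cells were untransfected or transiently transfected with the empty pCMV-flag vector, with EVI1-WT or with EVI1-AQA, and each of these 4 transfection states was studied without treatment and after 8 h with 150 μM H2O2. EVI1-WT is the wild-type form of the transcription factor EVI1 and EVI1-AQA carries alanine in place of the serines of its carboxy-terminal SQS motif, and both were driven by the viral CMV promoter of the plasmid. Transient transfection leaves a share of cells without plasmid, so the values of transfected libraries are averages over cells with and without it. In every library, fewer cells with a transcript cannot be told apart from less of it per cell. Each group has 1 library in each of 3 batches, and the batch number is also the replicate number. Nothing in the labels says whether the replicates were separate cultures, so p-values measure only the spread between these libraries.

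Cholesterol is built from acetyl-CoA through mevalonate. PMVK, phosphomevalonate kinase, adds the second phosphate on the way from mevalonate to the isoprenoid units, and FDPS, farnesyl diphosphate synthase, joins those units into farnesyl diphosphate, the branch point from which sterols, ubiquinone, dolichol and prenyl groups of proteins are made. SCP2, sterol carrier protein 2, binds lipids, and a longer product of the same gene is a peroxisomal thiolase that shortens branched-chain fatty acids and bile acid intermediates. Genes of the pathway are controlled together by the SREBP transcription factors when sterol runs low.

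On GRCh38, with the gene models of GENCODE release 44, PMVK (ENSG00000163344) lies on the minus strand of chromosome 1 at chr1:154924740-154936719, FDPS (ENSG00000160752) on the plus strand at chr1:155308748-155320666 and SCP2 (ENSG00000116171) on the plus strand at chr1:52927276-53051698. HSD17B7 (ENSG00000132196) lies on the plus strand at chr1:162790702-162812823. All 4 are protein-coding. The libraries read the 3′ ends of polyadenylated transcripts, so the row of SCP2 cannot separate the thiolase form from the short form, which has a start of its own inside the gene. Processed pseudogenes of FDPS elsewhere in the genome could also share reads with it.

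The stretches before the annotated starts are shown as background, because these genes are known as a co-regulated pathway. Whether they bear on the values here was not tested. They come from RefSeq on GRCh38.p14, are written 5′ to 3′ on the strand of the gene, and carry in capitals a CCAAT box (CCAAT, or ATTGG on the other strand) or a GC box (GGGCGG, or CCGCCC on the other strand). The stretch of PMVK is chr1:154936720-154936969 on the minus strand, that of SCP2 chr1:52927026-52927275 on the plus strand, and that of FDPS chr1:155308616-155308747 on the plus strand, where the GENCODE gene begins inside the 250 bases before the RefSeq start.
PMVK: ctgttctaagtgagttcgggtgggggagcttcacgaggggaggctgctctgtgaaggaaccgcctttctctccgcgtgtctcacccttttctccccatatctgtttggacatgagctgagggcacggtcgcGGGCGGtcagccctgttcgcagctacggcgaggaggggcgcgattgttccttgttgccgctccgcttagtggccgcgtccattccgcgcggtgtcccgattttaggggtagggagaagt
FDPS: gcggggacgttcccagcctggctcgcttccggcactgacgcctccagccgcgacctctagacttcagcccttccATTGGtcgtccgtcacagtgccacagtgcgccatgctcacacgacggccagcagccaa
SCP2: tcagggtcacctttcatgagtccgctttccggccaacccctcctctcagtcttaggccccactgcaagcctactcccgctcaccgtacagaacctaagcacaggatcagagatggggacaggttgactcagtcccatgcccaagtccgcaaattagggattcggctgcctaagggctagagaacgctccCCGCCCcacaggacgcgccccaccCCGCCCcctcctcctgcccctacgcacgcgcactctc
In the 250 bases before the RefSeq start, FDPS had CCAAT boxes at positions -176, -122 and -51 and a GC box at -22, with positions counted back from the start, and only the first of them lies whole in the stretch shown. PMVK had 1 GC box at -119, and SCP2 had GC boxes at -61 and -37. A CCAAT box was found on either strand in 32.0% of the 35116 RefSeq windows of this length, and a GC box in 42.6%. The sterol regulatory element searched as TCACNCCAC, found in 0.883% of all windows, the E-box CACGTG, found in 6.34%, and the antioxidant response core TGACNNNGC, found in 10.9%, had no match in the windows of these 3 genes. The search used exact letters on both strands, and GC content of the windows was 61.2% for PMVK, 61.6% for FDPS and 62.4% for SCP2. A further RefSeq window of SCP2, before the start inside the gene at chr1:53014687-53014936, had a GC content of 42.8% and no match to any of the 5 motifs.

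Values are the log2 expression that the authors deposited, in which the mean of every row is 0 within each batch of 8 libraries. A value says how far a library lay above or below its batch, and no level, read depth or ranking of one gene against another can be read from it. For the same reason the identity of the cells could not be checked by marker levels. Row labels were checked by asking whether protein-coding genes carry a row more often than other genes. Around the members they did, with a row for 64.3% of coding and 6.67% of other genes among the 50 genes on each side of PMVK, 70.7% and 4.65% around FDPS, and 71.1% and 1.59% around SCP2. Over chromosomes 2 to 22 the shares were 19.3% and 16.4%, so rows labelled with sterol genes there are given as counts only.

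Before the results, 3 libraries need naming. In the row labelled CACNB3, a label of chromosome 12 that is itself in doubt, chosen after its values were seen, which lay high in untreated cells with either EVI1 plasmid and low in those without, 3 libraries with H2O2 departed from their groups. These were empty vector replicate 2, at 4.36, EVI1-WT replicate 2, at -4.38, and EVI1-AQA replicate 1, at -2.60. They kept their labels, and results are given with and without them where they matter. Without them each of these groups holds 2 libraries, from batches 1 and 3 with empty vector or EVI1-WT and 2 and 3 with EVI1-AQA. Comparisons of these groups are then not balanced over batches. MECOM, the gene that encodes EVI1, was not analysed here.

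No member passed an adjusted p of 0.05 in any of 16 comparisons by limma with Benjamini-Hochberg adjustment over all 11579 rows, and at an unadjusted p under 0.05 there were 7 of 48 member results (14.6%), in 6 comparisons. Over all rows and the same 16 comparisons 12.2% passed the unadjusted threshold, from 3.41% to 31.1% in a comparison, so the members' share was near the background. PMVK was lower with H2O2 in 10 of 12 pairs of libraries, FDPS had opposite directions in batches 1 and 2, and SCP2 varied least of the 3.

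**Figure D1:**
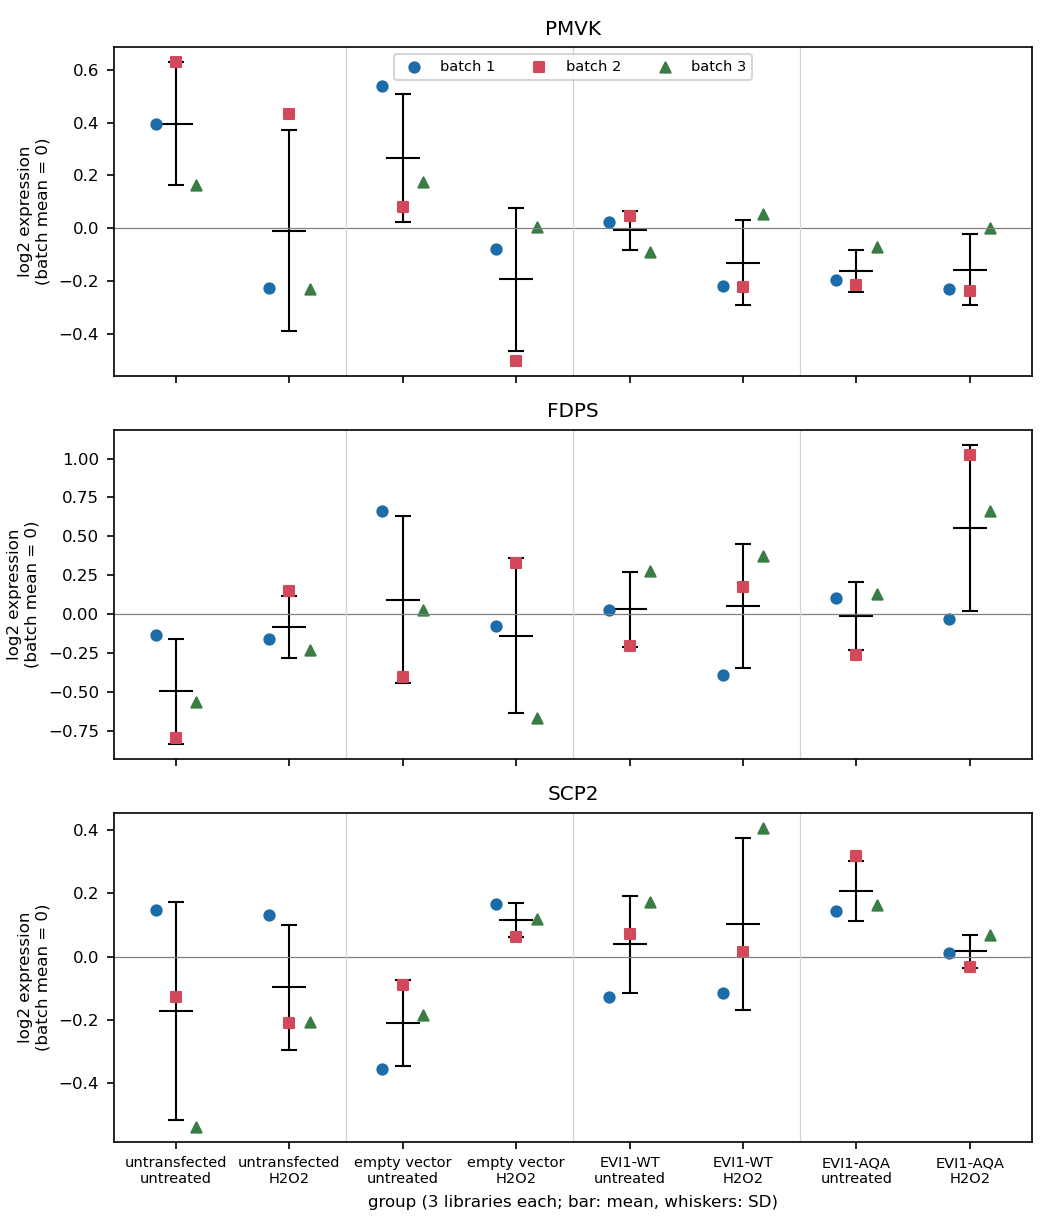
Log2 expression of PMVK, FDPS and SCP2 in the 24 libraries, centred on 0 within each batch, by group, with points for batches 1 to 3, a bar for the mean and whiskers for the SD (n = 3). The untreated untransfected and empty vector libraries of PMVK all lie above 0, FDPS spreads most, from -0.79 to 1.03, and SCP2 stays between -0.54 and 0.41.

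Across the untreated groups, PMVK was 0.40, 0.63 and 0.16 in the untransfected libraries of batches 1, 2 and 3, and 0.54, 0.081 and 0.18 in those with empty vector. With EVI1-WT it was 0.022, 0.044 and -0.092, and with EVI1-AQA -0.20, -0.22 and -0.072. The lowest value without an EVI1 plasmid, 0.081, was above the highest with one, 0.044, a separation noticed in the values and shared, in either direction, by 3.61% of all rows. With H2O2, PMVK was -0.23, 0.43 and -0.23 in untransfected cells and -0.081, -0.50 and 0.0029 with empty vector. It was -0.22, -0.23 and 0.054 with EVI1-WT and -0.23, -0.24 and -0.00024 with EVI1-AQA. Batch 2 of the untransfected cells was the only library with H2O2 above 0.1.

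The order of the PMVK group means ran from untransfected untreated, at 0.40 ± 0.23 (SD, n = 3), and empty vector untreated, at 0.27 ± 0.24 (SD, n = 3), down to empty vector with H2O2, at -0.19 ± 0.27 (SD, n = 3). Only the step below empty vector untreated, of 0.27 to EVI1-WT untreated at -0.0088 ± 0.073 (SD, n = 3), was larger than the larger SD of the neighbours. All other neighbours in the order differed by less than that spread.

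Averaged over the 4 transfection states, the log2 difference of PMVK between H2O2 and untreated cells was -0.25 (SE 0.089, 95% interval -0.43 to -0.060). PMVK was lower with H2O2 in 10 of 12 pairs of libraries of the same state and batch. Limma gave an unadjusted p of 0.0119 and an adjusted p of 0.0627, where 16.5% of all rows passed the adjusted threshold and 31.1% the unadjusted one. Within batches 1, 2 and 3 the mean difference was -0.38, -0.27 and -0.088, so the sign was shared and batch 3 was nearest to 0. Quantile normalisation took PMVK past the threshold, at -0.24 with an adjusted p of 0.0466, and over all 10 alternatives the adjusted p ran from 0.0466 to 0.410. Without the 3 libraries the difference was -0.19 (SE 0.095, adjusted p = 0.211 by limma).

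By transfection state, the H2O2 difference of PMVK was -0.41 (SE 0.18, 95% interval -0.78 to -0.035) in untransfected cells, with -0.62, -0.20 and -0.39 in batches 1, 2 and 3. In empty vector cells it was -0.46 (SE 0.18, 95% interval -0.83 to -0.089), with -0.62, -0.58 and -0.17. All 6 pairs of these states were lower with H2O2, and in empty vector cells the treated and untreated values did not overlap, as was so for 24.5% of all rows. Limma's unadjusted p was 0.0335 and 0.0175 and its adjusted p 0.276 and 0.186, against 0.389% and 2.00% of all rows at the adjusted and 15.4% and 17.5% at the unadjusted threshold. With the replicate block 1 and 41 rows in place of 45 and 232 passed the adjusted threshold in these states. Without empty vector replicate 2 and the other 2 libraries, the empty vector difference was -0.30 (adjusted p = 0.541 by limma, 0.108 to 0.688 over the alternatives).

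With an EVI1 plasmid the H2O2 difference of PMVK was smaller in size, at -0.12 (SE 0.18, 95% interval -0.49 to 0.25) with EVI1-WT and 0.0052 (SE 0.18, 95% interval -0.37 to 0.38) with EVI1-AQA. Whether the response differed from that of empty vector cells was tested as a change of the H2O2 effect, which was 0.34 (SE 0.25, 95% interval -0.19 to 0.86) for EVI1-WT and 0.46 (SE 0.25, 95% interval -0.059 to 0.99) for EVI1-AQA. The adjusted p by limma was 1.00 and 0.421, so the smaller difference with EVI1 was within the error. Both changes were positive in all 3 batches.

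**Figure D2:**
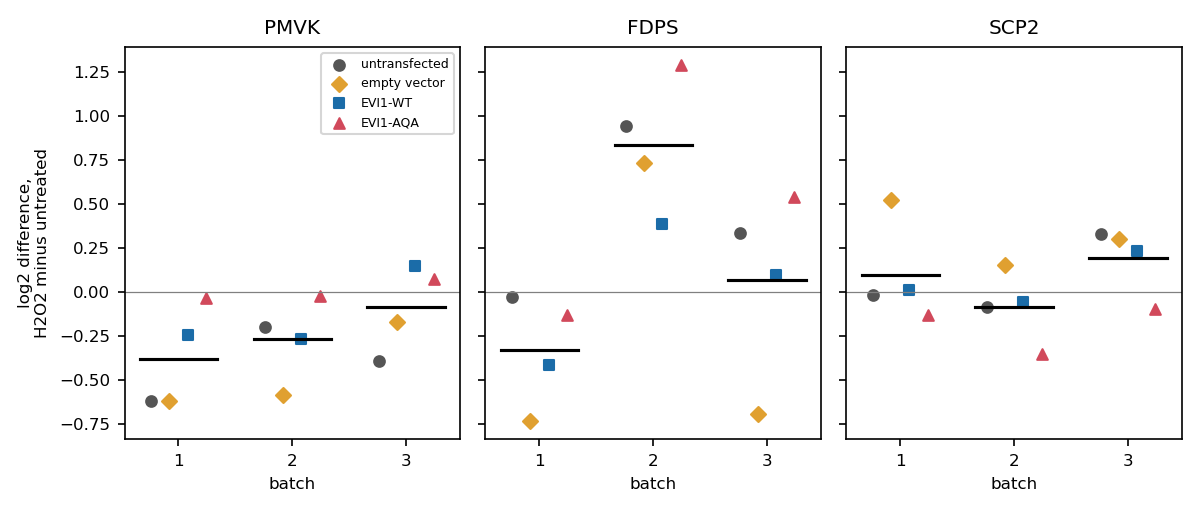
Log2 difference between the H2O2 and the untreated library of the same transfection state, by batch, for PMVK, FDPS and SCP2, with a black line at the mean of the 4 states. PMVK lies at or below 0 in 10 of 12 pairs, while the line of FDPS moves from -0.33 in batch 1 to 0.84 in batch 2 and 0.069 in batch 3.

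FDPS was the most variable member. Its SD within groups was 0.42, pooled over the 8 groups with 14 degrees of freedom to allow for the batch centring. This was larger than that of 90.8% of all rows, whereas PMVK had 0.24 and SCP2 0.20 and the median row 0.24. In untreated cells FDPS was -0.13, -0.79 and -0.57 in the untransfected libraries of batches 1, 2 and 3 and 0.66, -0.41 and 0.025 with empty vector. It was 0.027, -0.21 and 0.28 with EVI1-WT and 0.10, -0.27 and 0.13 with EVI1-AQA. The untransfected libraries were the lowest of their batch among untreated cells in all 3 batches. This order was noticed in the values, and the share of all rows that have it was not counted.

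With H2O2, FDPS was -0.16, 0.15 and -0.23 in untransfected cells and -0.075, 0.33 and -0.67 with empty vector. It was -0.39, 0.18 and 0.37 with EVI1-WT and -0.029, 1.03 and 0.66 with EVI1-AQA. The last group held the highest mean, 0.55 ± 0.54 (SD, n = 3), and untransfected untreated cells the lowest, -0.50 ± 0.34 (SD, n = 3). No neighbours in the order of the 8 means differed by more than the larger of their SDs.

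The mean H2O2 difference of FDPS over the 4 states was 0.19 (SE 0.15, 95% interval -0.11 to 0.50, adjusted p = 0.396 by limma), and FDPS was higher with H2O2 in 7 of 12 pairs. Its direction differed between batches, and this difference was not tested. In batch 1 all 4 pairs were lower, by a mean difference of -0.33 ± 0.32 (SD over 4 pairs), in batch 2 all 4 were higher, by 0.84 ± 0.38, and in batch 3 the mean difference was 0.069 ± 0.54. In batch 2 all 4 libraries with H2O2, from 0.15 to 1.03, lay above all 4 untreated ones, from -0.79 to -0.21. This separation was noticed in the values. In that batch 3.17% of all rows were apart in this direction and 6.11% in either direction. Without replicate 2 the mean difference turned to -0.13. Both libraries of batch 2 that departed in the row labelled CACNB3 were H2O2 libraries, and without the 3 libraries the mean difference was 0.19 (SE 0.14).

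By state, the H2O2 difference of FDPS was 0.42 (SE 0.29, 95% interval -0.20 to 1.03) in untransfected, -0.23 (SE 0.29, 95% interval -0.84 to 0.38) in empty vector, 0.021 (SE 0.29, 95% interval -0.59 to 0.63) in EVI1-WT and 0.57 (SE 0.29, 95% interval -0.045 to 1.18) in EVI1-AQA cells. Their adjusted p by limma lay between 0.328 and 0.983, and for the EVI1-WT and EVI1-AQA states 0.475% and 2.02% of all rows passed the adjusted threshold. The sign was not shared by the 3 batches in any of the 4 states. Without the 3 libraries, EVI1-AQA replicate 1 among them, the difference in EVI1-AQA cells was 0.86 (SE 0.29, adjusted p = 0.122 by limma, 0.122 to 0.851 over the alternatives), that in empty vector cells was -0.46, and that in EVI1-WT cells turned to -0.040. Each of these 3 states then lacked a batch with H2O2 that it kept untreated.

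SCP2 had the smallest spread of the members. In untreated cells it was 0.15, -0.13 and -0.54 in the untransfected libraries of batches 1, 2 and 3 and -0.36, -0.091 and -0.19 with empty vector. It was -0.13, 0.072 and 0.17 with EVI1-WT and 0.15, 0.32 and 0.16 with EVI1-AQA. All 3 EVI1-AQA values were above all 3 empty vector values, and 21.8% of all rows had no overlap between these groups. With H2O2, SCP2 was 0.13, -0.21 and -0.21 in untransfected cells and 0.17, 0.061 and 0.12 with empty vector. It was -0.12, 0.015 and 0.41 with EVI1-WT and 0.012, -0.033 and 0.069 with EVI1-AQA, so that the treated groups overlapped around 0.

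The means of SCP2 ran from 0.21 ± 0.095 (SD, n = 3) in untreated EVI1-AQA cells to -0.21 ± 0.14 (SD, n = 3) in untreated empty vector cells, and no neighbours in that order differed by more than the larger SD. The mean H2O2 difference was 0.069 (SE 0.080, 95% interval -0.097 to 0.23, adjusted p = 0.597 by limma), with 0.097, -0.085 and 0.19 in batches 1, 2 and 3 and 6 of 12 pairs higher.

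By state the H2O2 difference of SCP2 was 0.077 (SE 0.16, 95% interval -0.25 to 0.41) in untransfected and 0.063 (SE 0.16, 95% interval -0.27 to 0.40) in EVI1-WT cells. In empty vector cells it was 0.33 (SE 0.16, 95% interval -0.0049 to 0.66), positive in all 3 batches, and in EVI1-AQA cells -0.19 (SE 0.16, 95% interval -0.53 to 0.14), negative in all 3. In both of these states the treated values did not overlap the untreated ones, as for 24.5% of all rows with empty vector and 22.3% with EVI1-AQA. The change of the H2O2 effect between EVI1-AQA and empty vector was -0.52 (SE 0.23, 95% interval -0.99 to -0.051), with an unadjusted p of 0.0315 and an adjusted p of 0.302 by limma, where 14.2% of all rows passed the unadjusted and 0.406% the adjusted threshold (47 rows, and 0 with the replicate block). It was -0.55 (SE 0.27) without the 3 libraries.

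**Figure D3:**
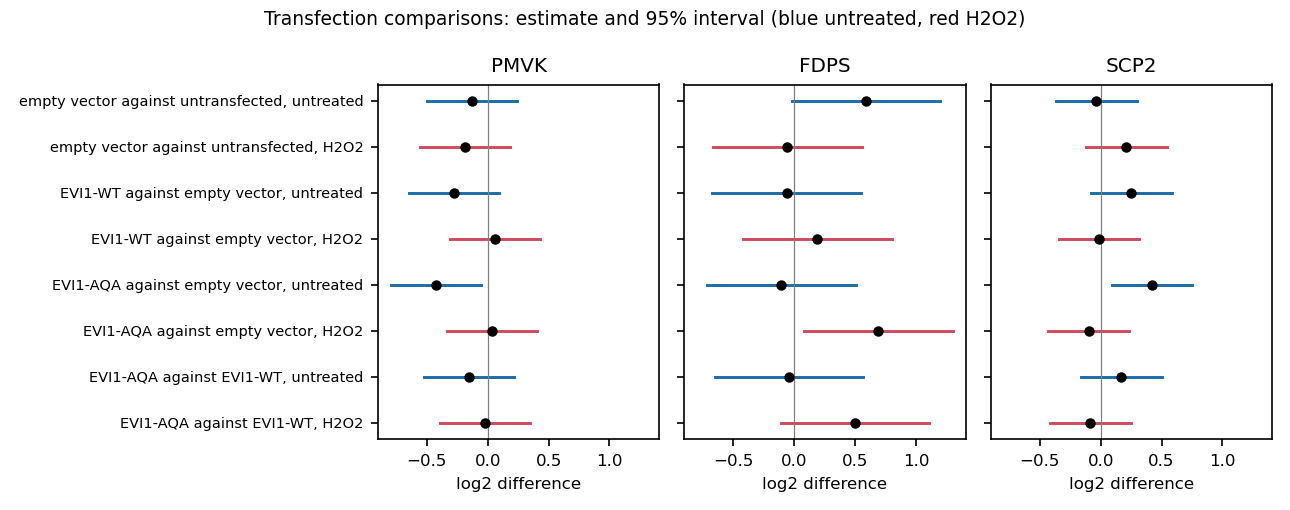
Log2 differences between transfection states, untreated in blue and with H2O2 in red, for PMVK, FDPS and SCP2, with points for the limma estimate and lines for its unadjusted 95% interval. Intervals that leave 0 out are those of EVI1-AQA against empty vector, untreated for PMVK (-0.80 to -0.057) and SCP2 (0.089 to 0.75) and with H2O2 for FDPS (0.081 to 1.30).

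Transfection itself was read from empty vector against untransfected cells. In untreated cells the log2 difference of FDPS was 0.59 (SE 0.29, 95% interval -0.020 to 1.20, adjusted p = 0.357 by limma), with 0.79, 0.39 and 0.59 in batches 1, 2 and 3, so FDPS was higher with the vector in 3 of 3 batches. PMVK differed by -0.13 (SE 0.18, 95% interval -0.50 to 0.24) and SCP2 by -0.037 (SE 0.16, 95% interval -0.37 to 0.30), neither with a shared sign. With H2O2 the differences were -0.18 for PMVK, -0.056 for FDPS and 0.21 for SCP2, with adjusted p by limma from 0.642 to 0.966. Of all rows, 0.147% passed the adjusted threshold in untreated cells and 0% with H2O2.

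EVI1-WT was compared with empty vector. The differences in untreated cells were -0.27 (SE 0.18, 95% interval -0.65 to 0.096) for PMVK, -0.062 (SE 0.29, 95% interval -0.67 to 0.55) for FDPS and 0.25 (SE 0.16, 95% interval -0.082 to 0.58) for SCP2. PMVK was lower in 3 of 3 batches and SCP2 higher in 3 of 3. With H2O2 they were 0.063 for PMVK, 0.19 for FDPS and -0.014 for SCP2, and the adjusted p by limma was at least 0.819 in either treatment. In these comparisons 0% of all rows passed the adjusted threshold.

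EVI1-AQA against empty vector gave the largest member differences among the transfection comparisons with an EVI1 plasmid. In untreated cells PMVK differed by -0.43 (SE 0.18, 95% interval -0.80 to -0.057), with -0.74, -0.30 and -0.25 in batches 1, 2 and 3, and SCP2 by 0.42 (SE 0.16, 95% interval 0.089 to 0.75), with 0.50, 0.41 and 0.35. For both genes the 3 values of one group did not overlap those of the other, as for 21.8% of all rows. The unadjusted p by limma was 0.0257 and 0.0155, a threshold passed by 14.9% of all rows, and the adjusted p was 0.264 and 0.222, where 0.0864% of all rows passed. FDPS differed by -0.11 (SE 0.29, 95% interval -0.72 to 0.51). The comparison shares its empty vector libraries with the H2O2 difference of empty vector cells, in which the same libraries of PMVK are high and those of SCP2 low.

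With H2O2, FDPS was higher with EVI1-AQA than with empty vector by 0.69 (SE 0.29, 95% interval 0.081 to 1.30), with 0.046, 0.70 and 1.33 in batches 1, 2 and 3, and the groups overlapped. The unadjusted p by limma was 0.0284 and the adjusted p 0.475, where 9.15% and 0.0173% of all rows passed. This comparison holds 2 of the 3 libraries in doubt. Without all 3 the difference was 1.22 (SE 0.32), with an unadjusted p of 0.00135 and an adjusted p of 0.245 by limma. The groups then shared only batch 3, as empty vector kept batches 1 and 3 and EVI1-AQA batches 2 and 3. The H2O2 difference of FDPS had opposite directions in batches 1 and 2, so batch and plasmid are partly mixed in this value. Over the 10 alternatives the difference ran from 0.37 to 1.37 with an adjusted p from 0.241 to 0.842. PMVK differed by 0.037 (SE 0.18, 95% interval -0.33 to 0.41) and SCP2 by -0.100 (SE 0.16, 95% interval -0.43 to 0.23). The change of the H2O2 effect in FDPS between EVI1-AQA and empty vector was 0.80 (SE 0.41, 95% interval -0.067 to 1.66, adjusted p = 0.395 by limma), and 1.32 (SE 0.41, adjusted p = 0.192) without the 3 libraries, where batch and plasmid are again partly mixed.

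Between the EVI1 forms, EVI1-AQA against EVI1-WT, the untreated differences were -0.15 (95% interval -0.52 to 0.22) for PMVK, -0.044 (95% interval -0.66 to 0.57) for FDPS and 0.17 (95% interval -0.16 to 0.50) for SCP2. With H2O2 they were -0.026 (95% interval -0.40 to 0.34), 0.50 (95% interval -0.11 to 1.11) and -0.086 (95% interval -0.42 to 0.25). The adjusted p by limma lay between 0.595 and 0.998, where 0% of all rows passed in untreated cells and 0.0173% with H2O2. FDPS was higher with EVI1-AQA than with EVI1-WT in all 3 batches under H2O2, by 0.36, 0.85 and 0.29, and by 0.85 (SE 0.32, adjusted p = 0.294) in the fit without the 3 libraries, which include EVI1-WT replicate 2 and EVI1-AQA replicate 1. In that fit the 2 groups shared only batch 3.

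Changes of the H2O2 effect between empty vector and untransfected cells were -0.054 (SE 0.25) for PMVK, -0.65 (SE 0.41) for FDPS and 0.25 (SE 0.23) for SCP2, and those between EVI1-WT and empty vector were 0.25 (SE 0.41) for FDPS and -0.26 (SE 0.23) for SCP2. In both of these tests 0% of all rows passed the adjusted threshold. Across the 8 groups together, limma's F-test gave PMVK an unadjusted p of 0.0240 and an adjusted p of 0.0868, FDPS an adjusted p of 0.223 and SCP2 one of 0.278, while 36.7% of all rows passed the unadjusted and 18.4% the adjusted threshold (2136 rows, and 911 with the replicate block).

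The 3 members did not follow one pattern. Over the 24 libraries Pearson's r was -0.18 between PMVK and FDPS, -0.40 between PMVK and SCP2 and 0.14 between FDPS and SCP2. The points share batches and libraries, so these are descriptions. Among the 1541 rows of chromosomes 1 and X, those most like PMVK were EPRS, a tRNA synthetase (r = 0.89, Spearman's rho = 0.61), MRPL24, a mitochondrial ribosomal protein (r = 0.88), and DPH5, an enzyme of diphthamide synthesis (r = 0.86). Those most like FDPS were COX7B, a subunit of cytochrome oxidase (r = 0.70), UQCRHL (r = 0.69) and the ribosomal protein RPL11 (r = 0.67). For SCP2 they were the small GTPase CDC42 (r = 0.80), TMEM50A (r = 0.79) and the centrin CETN2 (r = 0.77), all over 24 libraries. None of these rows belongs to the sterol lists used here.

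The remaining sterol and isoprenoid genes of chromosomes 1 and X were taken as a list of 18, of which 17 had a row. Averaged over the 4 states, 2 of the 17 rose with H2O2 and 2 fell by the adjusted p of limma, and the median log2 difference was -0.097. Of all 11579 rows, 1031 (8.90%) rose and 883 (7.63%) fell, with a median of 0.0016. PRKAB2, a regulatory subunit of the AMP-activated kinase that phosphorylates HMG-CoA reductase, was from -0.54 to 0.18 in untreated libraries and from -0.098 to 0.41 with H2O2. It rose by 0.43 (SE 0.076, adjusted p = 0.000925 by limma) and was higher in 11 of 12 pairs. ACBD3, a Golgi protein that binds acyl-CoA, rose by 0.22 (SE 0.067, adjusted p = 0.0266), also in 11 of 12 pairs. LBR, the lamin B receptor, which is also a sterol C14 reductase, was from 0.024 to 0.34 in untreated libraries and from -0.37 to 0.22 with H2O2. It fell by 0.33 on the log2 scale (SE 0.068, adjusted p = 0.00319) and was lower in 10 of 12 pairs. MBTPS2, the site 2 protease that releases SREBP, fell by 0.30 (SE 0.097, adjusted p = 0.0405), in 9 of 12 pairs. With the replicate number as a block, PRKAB2 (adjusted p = 0.00324) and LBR (0.00922) passed and ACBD3 (0.0511) and MBTPS2 (0.0673) did not. Without the 3 libraries, 1 rose and 2 fell, as ACBD3 had an adjusted p of 0.0826. Without replicate 2, the adjusted p of these 4 genes was between 0.0758 and 0.273.

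The other 13 genes of the list did not pass, and those reported by name follow. NSDHL and EBP, enzymes between lanosterol and cholesterol on chromosome X, differed by 0.066 and 0.076. Of the genes that use isoprenoids for other products, GGPS1, which makes geranylgeranyl diphosphate, differed by -0.0064, DHDDS, which makes dolichol chains, by -0.0089, and COQ8A, of ubiquinone synthesis, by -0.13. LRP8, a receptor of the LDL receptor family, differed by -0.097, and SOAT1, which esterifies cholesterol, by -0.13. PRKAA2, a catalytic subunit of the AMP-activated kinase, differed by 0.15, and OSBPL9, an oxysterol-binding protein relative, by -0.14 (SE 0.072, adjusted p = 0.206 by limma), although it was lower in 12 of 12 pairs. FDPS and PMVK lay inside the range of this list, from -0.33 to 0.43.

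**Figure D4:**
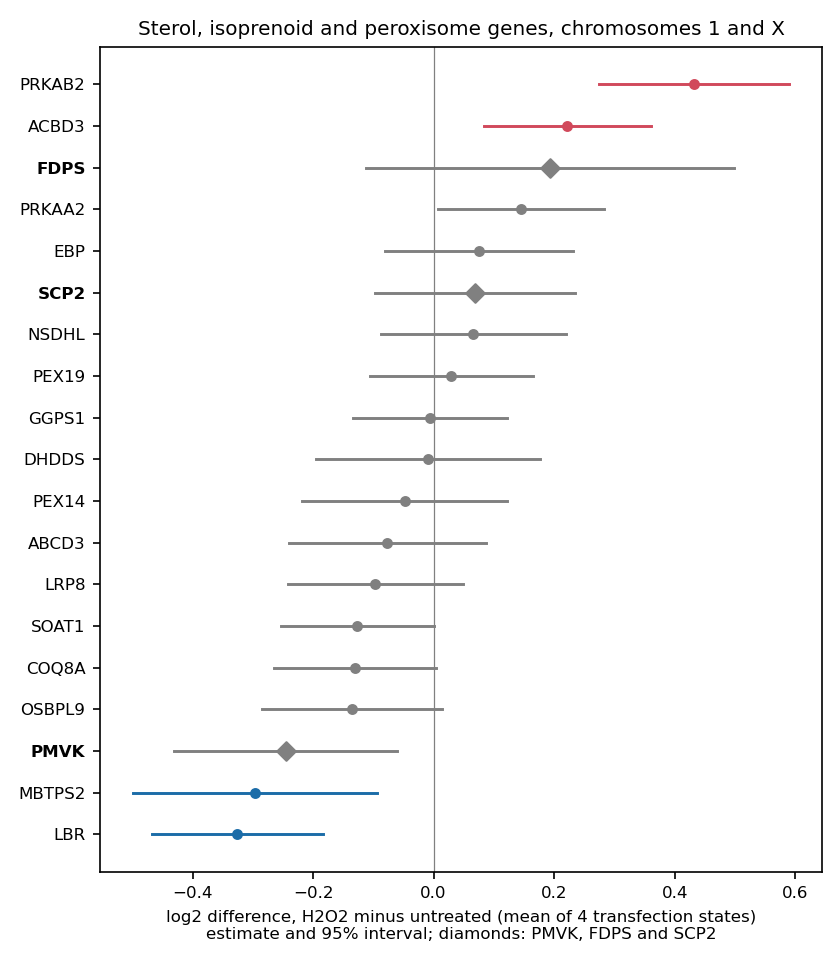
Log2 difference between H2O2 and untreated cells, averaged over the 4 transfection states, for PMVK, FDPS and SCP2 (diamonds) and the named sterol, isoprenoid and peroxisome genes of chromosomes 1 and X, with the limma estimate and its 95% interval. PRKAB2 and ACBD3 (red) rose and MBTPS2 and LBR (blue) fell by adjusted p, and PMVK at -0.25 lies next to MBTPS2 at -0.30.

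Of 6 peroxisome genes of these chromosomes, set beside SCP2 for its peroxisomal form, 4 had a row and none passed in the mean H2O2 effect, where 16.5% of all rows did. PEX14 differed by -0.048, PEX19 by 0.029 and the peroxisomal fatty acid transporter ABCD3 by -0.077. ABCD3 was the only list gene called in another comparison. In EVI1-AQA cells it was 0.41, 0.26 and 0.32 untreated and 0.017, -0.39 and -0.46 with H2O2, and it fell by 0.61 (SE 0.16, adjusted p = 0.0465 by limma), where 2.02% of all rows passed. With the replicate block the adjusted p was 0.0989, in the unmoderated fit 0.0530 and in the pair-only fit 0.148. Without the 3 libraries ABCD3 fell by 0.76 (adjusted p = 0.0237), and without any 1 replicate the adjusted p was between 0.0965 and 0.301. SCP2 in the same cells differed by -0.19.

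By label over all chromosomes, 8 of 21 genes of sterol synthesis had a row and 1 fell in the mean H2O2 effect, which was LBR, and 7 of 21 genes of sterol control had a row and 1 fell, MBTPS2. These are 12.5% and 14.3% of the genes with a row, near the 16.5% of all rows that passed. Neither list had a gene called in the other 15 comparisons. Of 12 pseudogenes and relatives of the members, 3 had a row by label, on chromosomes where labels are in doubt, and none passed.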

How the data were processed

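RNA of 24 HEK293 libraries (8 groups of 3) was sequenced by the authors from the 3′ end of polyadenylated transcripts. Per the study's methods, BAM files were made against GRCh38 with the Ensembl release 90 annotation (the aligner is not given in the sources used here) and transcripts at an FPKM of 10 or more were analysed in Qlucore Omics Explorer. The table the authors deposited holds log2 values of 11579 transcripts after their normalisation, with the mean of each row at 0 within each batch (largest departure 4.5e-06). The log base is not named and was taken as 2, at which differences correspond to the study's own expression ratios. No counts were used, so depth is unknown, no filter on low values could be set, and 3 libraries a group limit the precision.

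Groups and batches were taken from the labels. A model of the 8 group means, without a replicate block, was fitted by limma 3.58.1 (R 4.3.3) to all 24 libraries and all rows (16 residual degrees of freedom and a prior of 4.88, with no allowance for the centring), and tested two-sided with Benjamini-Hochberg adjustment over all rows. The pairing of libraries comes from the labelled batch, and the replicate number is the batch number. Correlations between same-numbered libraries are set by the centring and were not used. Alternatives were the replicate block, pair-only and unmoderated fits, median centring, quantile normalisation, leaving out each replicate, and leaving out the 3 libraries in doubt with and without the block. The script was tested on simulated data. Named genes were the members, list genes of chromosomes 1 and X (the results of some are not reported here, though counts include them), the 3 rows most like each member, and CACNB3. The members and lists were chosen with earlier results of these data known. Positions come from GENCODE release 44, which held 94.1% of the identifiers. Other steps used Python 3.11.15.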

Additional observations from a re-analysis of the deposited data

Results flagged for a closer look

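SCP2 was marked because its H2O2 difference pointed in opposite directions in 2 transfection states. With empty vector it was 0.33, higher with H2O2 in 3 of 3 batches, and with EVI1-AQA it was -0.19, lower in 3 of 3. The test of the difference itself gave -0.52 (SE 0.23, unadjusted p = 0.0315, adjusted p = 0.302 by limma, from 0.170 to 0.653 over the alternatives), so it did not pass the correction over all rows. Leaving out single replicates gave -0.58 to -0.45. FDPS also had opposite signs in these 2 states, at -0.23 with empty vector and 0.57 with EVI1-AQA. In neither state was the sign of FDPS shared by the 3 batches.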

How the results depend on the processing

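Of 48 member results, 27 kept their direction in all 10 alternatives, and no member passed an adjusted p of 0.05 except PMVK in the mean H2O2 effect under quantile normalisation, where the count of members called went from 0 to 1. The replicate block, for the pairing by batch, left the PMVK difference at -0.25 with an adjusted p of 0.0979, ended the calls of ACBD3, MBTPS2 and ABCD3, and changed no member call. Depth is unknown and limits what can be said of small differences. The causes of the changes of direction below were not tested, and all are of differences that were not called.

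Quantile normalisation gave 0.0014 for PMVK in EVI1-AQA against EVI1-WT with H2O2, and -0.0042 for FDPS in the H2O2 effect of EVI1-WT cells. Without the 3 libraries, PMVK was -0.045 in EVI1-WT and -0.081 in EVI1-AQA against empty vector with H2O2 and 0.10 in the change of the H2O2 effect between empty vector and untransfected cells, FDPS was -0.040 in the H2O2 effect of EVI1-WT cells, and SCP2 was 0.0024 in EVI1-WT against empty vector with H2O2. With the replicate block added, these were -0.045, -0.13, 0.13, -0.12 and 0.0024, and PMVK was 0.0021 in empty vector against untransfected cells with H2O2.

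Leaving out single replicates turned the direction of other differences. PMVK ranged from -0.028 to 0.024 in the H2O2 effect of EVI1-AQA cells, from -0.27 to 0.079 in empty vector against untransfected cells untreated and from -0.39 to 0.19 with H2O2, with H2O2 from -0.045 to 0.16 in EVI1-WT and from -0.076 to 0.13 in EVI1-AQA against empty vector, and from -0.19 to 0.11 in the change of the H2O2 effect between empty vector and untransfected cells. FDPS ranged from -0.13 to 0.45 in the mean H2O2 effect, from -0.71 to 0.020 in that of empty vector and from -0.16 to 0.24 in that of EVI1-WT cells. It ranged from -0.17 to 0.13 in empty vector against untransfected cells with H2O2, from -0.22 to 0.22 untreated and from -0.23 to 0.45 with H2O2 in EVI1-WT against empty vector, from -0.23 to 0.12 in EVI1-AQA against empty vector untreated, from -0.10 to 0.0082 in EVI1-AQA against EVI1-WT untreated, and from -0.016 to 0.55 in the change of the H2O2 effect between EVI1-WT and empty vector. SCP2 ranged from -0.049 to 0.16 in the H2O2 effect of untransfected and from -0.023 to 0.12 in that of EVI1-WT cells, from -0.23 to 0.20 in empty vector against untransfected cells untreated, and with H2O2 from -0.17 to 0.12 in EVI1-WT against empty vector and from -0.19 to 0.041 in EVI1-AQA against EVI1-WT.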
